A study of Homo sapiens with 9 samples.

Results

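The genes described are the protein-coding genes of human chromosome 19 whose symbol is ZNF followed by a number, chosen by their read counts in OVCA433 ovarian cancer cells. A gene was a member when at least 3 of the 9 libraries held 10 or more of its reads, whatever group they belonged to. Of the 249 such genes in the count table, which lists 58676 genes in all, 226 were members. The other 23 fell short, 11 of them with no read in any library. OVCA433 is an established human line of ovarian serous adenocarcinoma. The cells carried a lentiviral pLKO.1 control vector, shRNA hairpin #1 against MPZL3 or shRNA hairpin #3 against MPZL3, and all 3 groups had been selected with puromycin. Each group had 3 libraries, lettered A to C and described as biological replicates. MPZL3 is an immunoglobulin-domain transmembrane protein with a predicted role in adhesion. The control is called an empty vector in one place and a scrambled hairpin in another, so the response to any hairpin cannot be told apart from the response to MPZL3 loss.

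Most of these genes encode C2H2 zinc finger proteins, in which an array of zinc-bound fingers reads DNA sequence. Many also carry a KRAB domain, which binds the corepressor TRIM28, and TRIM28 brings the histone methyltransferase SETDB1 and HP1 proteins to the site. Their best known targets are transposable elements. The genes lie in tandem arrays that grew by duplication, so neighbours are often close relatives with long stretches of like sequence.

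MPZL3 stood at 9.66% of its control level with hairpin #1 and at 8.07% with hairpin #3, so both hairpin groups matched their labels. Library totals ran from 16850854 to 23890191 counts. The fit covered 15975 genes, with 225 of the members among them and ZNF20 left out by its low-count filter. Of 8 ovarian and epithelial markers 7 were tested, of which 5 fell at 2-fold and 1 rose with both hairpins. Their summed level was 10250 to 12320 CPM (counts scaled to library size) in control, 5219 to 6668 with hairpin #1 and 5157 to 5781 with hairpin #3, and WT1 had no read. Of 7 fibroblast markers 5 were tested and rose, with sums of 18.6 to 22.1, 109 to 446 and 503 to 871 CPM in the same order and DCN at 0. The 5 mesothelial markers summed to 137 to 172, 94.2 to 110 and 234 to 280 CPM, and the 5 leukocyte and endothelial markers to at most 1.71 CPM. The mesothelial markers moved in different directions. In the same order UPK3B had means of 57.2, 0.541 and 0.746 CPM and PDPN 12.6, 0.270 and 78.1. MSLN had 68.4, 85.9 and 148.9 CPM, LRRN4 10.4, 17.4 and 25.1, and CALB2 was near 0 in all. The part of these marker shifts in the ZNF values was not tested. In bulk RNA, fewer cells expressing a gene and less RNA per cell cannot be told apart.

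Membership turned on low counts for few genes, since 215 members had 10 counts in all 9 libraries. Just inside were ZNF763 with 5 to 14 counts across the libraries, ZNF20 with 2 to 13, and ZNF135, which passed through the control group alone and so had to differ between groups. Just outside were ZNF878 with 5 to 17 counts and ZNF492, with 14, 16 and 7 counts in control and 0 in all 6 knockdown libraries. ZNF625 and ZNF564 reached 10 counts in 1 library each.

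The promoters of 5 members with very deep losses are shown first. ZNF135, ZNF582 and ZNF835 fell to 3 counts or fewer in every library of at least 1 hairpin, and ZNF556 and ZNF737 came close to it with hairpin #1. Each sequence is the 250 bases before the gene start, from RefSeq on GRCh38.p14, 5′ to 3′ on the gene's strand, with every CG dinucleotide, the usual target of DNA methylation, in capitals. Entries were found by symbol for 200 of the 226 members. The ZNF135 window is chr19:58058989-58059238 on the plus strand. The ZNF582 window is chr19:56393535-56393784 on the minus strand. The ZNF835 window is chr19:56671758-56672007 on the minus strand. The ZNF556 window is chr19:2867085-2867334 on the plus strand. The ZNF737 window is chr19:20565782-20566031 on the minus strand.
ZNF135: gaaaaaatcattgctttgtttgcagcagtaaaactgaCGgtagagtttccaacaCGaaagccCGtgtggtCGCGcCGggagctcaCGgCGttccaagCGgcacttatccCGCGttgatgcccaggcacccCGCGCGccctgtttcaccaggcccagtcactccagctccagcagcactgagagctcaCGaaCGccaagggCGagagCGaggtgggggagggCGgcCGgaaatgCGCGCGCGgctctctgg
ZNF582: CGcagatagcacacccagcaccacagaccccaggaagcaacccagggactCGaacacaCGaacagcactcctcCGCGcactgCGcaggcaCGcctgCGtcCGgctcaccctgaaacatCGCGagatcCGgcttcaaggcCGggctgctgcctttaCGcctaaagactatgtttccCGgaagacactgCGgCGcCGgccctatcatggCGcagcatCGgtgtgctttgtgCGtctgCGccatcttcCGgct
ZNF835: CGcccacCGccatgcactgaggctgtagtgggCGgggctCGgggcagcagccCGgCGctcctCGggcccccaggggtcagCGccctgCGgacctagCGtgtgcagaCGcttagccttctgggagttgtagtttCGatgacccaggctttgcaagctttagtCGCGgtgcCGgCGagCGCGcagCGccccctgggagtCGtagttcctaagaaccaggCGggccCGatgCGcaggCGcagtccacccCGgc
ZNF556: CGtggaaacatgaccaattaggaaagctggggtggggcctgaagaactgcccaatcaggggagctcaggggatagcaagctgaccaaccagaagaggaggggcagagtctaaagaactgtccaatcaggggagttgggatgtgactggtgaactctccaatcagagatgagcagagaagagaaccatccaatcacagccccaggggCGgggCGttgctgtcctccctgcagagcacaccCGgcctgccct
ZNF737: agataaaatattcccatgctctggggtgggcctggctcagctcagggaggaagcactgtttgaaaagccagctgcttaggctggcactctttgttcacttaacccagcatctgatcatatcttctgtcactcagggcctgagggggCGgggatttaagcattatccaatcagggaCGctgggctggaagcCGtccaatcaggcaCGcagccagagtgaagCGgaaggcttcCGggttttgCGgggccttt

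These windows were of CG-rich and CG-poor kinds. ZNF135, ZNF582 and ZNF835 held 24, 23 and 25 CG dinucleotides, and 23.7%, 25.8% and 21.6% of all 35116 RefSeq windows of this length held at least as many. ZNF556 held 4 and ZNF737 held 7, matched or passed by 70.7% and 58.9% of windows. The median was 16 for the members and 11 for all windows. CG reads the same on both strands, and methylation of these cytosines was not measured. The tested members with an entry were also split by CG number into 3 groups. The median log2 fold change with both hairpins was -0.17 in the 68 members with 1 to 13 CG, of which 49 were below control. It was -0.23 in the 68 with 14 to 19, with 52 below, and -0.31 in the 63 with 20 to 35, with 50 below. CG number was not separated from position, since windows of cluster 4, defined below, held 3 (ZNF708) to 14 (ZNF101). Some windows lie far from the start in the count table, by 70365 bases for ZNF420 and 47600 for ZNF613. No such split of all genes was set beside it.

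The first question was how the ZNF genes as a group stood in knockdown cells. They were mildly and widely lower. Of the 225 tested members, 173 were below control with both hairpins taken as 1 arm, and their median log2 fold change was -0.25, against 0.00 for all tested genes. With hairpin #1 the median was -0.30 with 179 below control, and with hairpin #3 it was -0.20 with 154 below. The summed level of the 226 members was 3472, 3571 and 3459 CPM in the control libraries, 2746, 2891 and 2730 under hairpin #1 and 3083, 3040 and 3007 under hairpin #3. The 3 groups did not overlap, and the hairpin means were 79.7% and 86.9% of control.

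Few single members changed at least 2-fold with an adjusted p-value under 0.05 in edgeR's quasi-likelihood test. With both hairpins 6 members were lower and 0 higher, where 7.4% of all tested genes were lower and 7.26% higher. With hairpin #1 12 were lower and 0 higher, where 8.55% and 7.76% of all genes were. With hairpin #3 5 were lower and 0 higher, where 7.83% and 7.46% were. Each count of lower members includes ZNF135, whose fall the membership rule fixed. The members' counts were below these background shares in both directions. Leaving out 1 control library moved some of them, to 3 with both hairpins without control C and to 10 with hairpin #3 without control A.

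By the adjusted p-value alone the falls stood out more. With both hairpins 65 members (28.9%) were lower and 7 (3.11%) higher, where 17% and 15.9% of all genes were. With hairpin #1 86 (38.2%) were lower and 7 (3.11%) higher, where 19.7% and 18% were. With hairpin #3 43 (19.1%) were lower and 6 (2.67%) higher, where 18.1% and 16.6% were, so the share lower with hairpin #3 was near the background. All libraries of hairpin #1 were below all control libraries for 48.4% of members and 24.7% of all genes. For hairpin #3 these shares were 36.4% and 24.9%.

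**Figure D1:**
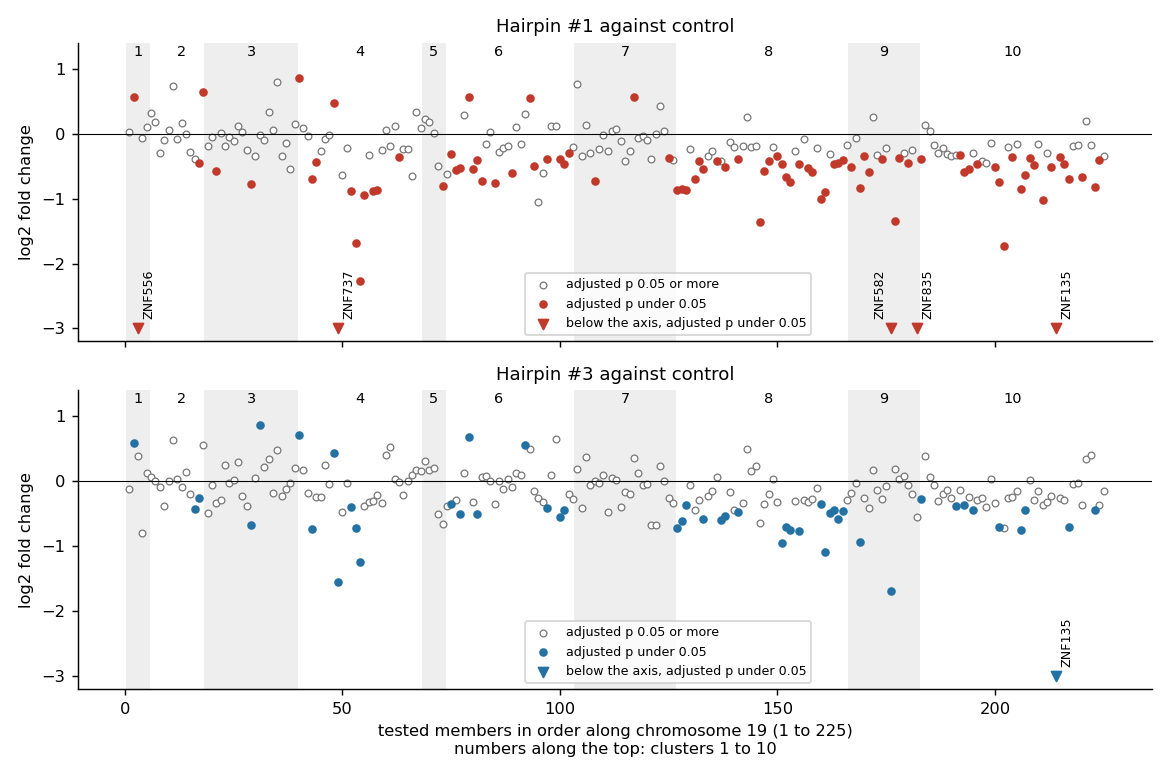
Log2 fold change (y axis) of the 225 tested members in their order along chromosome 19 (x axis), for hairpin #1 (top) and hairpin #3 (bottom) against control. Filled points had an adjusted p-value under 0.05, triangles lie below the axis, and in clusters 8 to 10 on the right 36 of 37, 15 of 16 and 40 of 43 members sit under 0 with hairpin #1.

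Other gene sets gave other values. The 234 tested protein-coding ZNF genes of other chromosomes had a median log2 fold change of 0.05 with both hairpins, with 29 (12.4%) higher and 17 (7.26%) lower by adjusted p-value. The 766 other protein-coding genes of chromosome 19, zinc finger genes of other names included, had a median of -0.10. Of these 94 (12.27%) were higher and 198 (25.85%) lower, where 28.89% of members were lower. With hairpin #1 28.2% were lower and with hairpin #3 25.46%, where 38.22% and 19.11% of members were. At 2-fold 91 of the 766 were lower and 45 higher with both hairpins, where 6 and 0 of the 225 members were. The difference between these lists and the members was not tested.

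To follow the genes along the chromosome they were divided by position alone. A new cluster began after a gap of more than 500 kb, and 10 clusters held at least 5 listed genes, numbered from the short-arm end, with 12 members scattered between them. Coordinates are those of the count table, on hg38. Clusters 1 (chr19:2819874-2944971, 5 members), 2 (chr19:8509678-9793180, 11 members) and 3 (chr19:11483427-12640098, 22 members) had median log2 fold changes of -0.05, -0.02 and -0.05 with both hairpins. Cluster 4 (chr19:19668796-24129961, 27 members), the one nearest the centromere, had -0.23. Cluster 5 (chr19:34677639-34964049, 5 members) had 0.11, cluster 6 (chr19:36182060-37817300, 25 members) had -0.28 and cluster 7 (chr19:43525497-44500524, 23 members) had -0.13. The lowest median of all was that of cluster 8 (chr19:51571298-53580269, 37 members) at -0.39. Cluster 9 (chr19:55476332-56671783, 16 members) had -0.27, and cluster 10 (chr19:57191500-58481230, 43 members), at the long-arm end, had -0.33. The scattered members had -0.24.

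**Figure D2:**
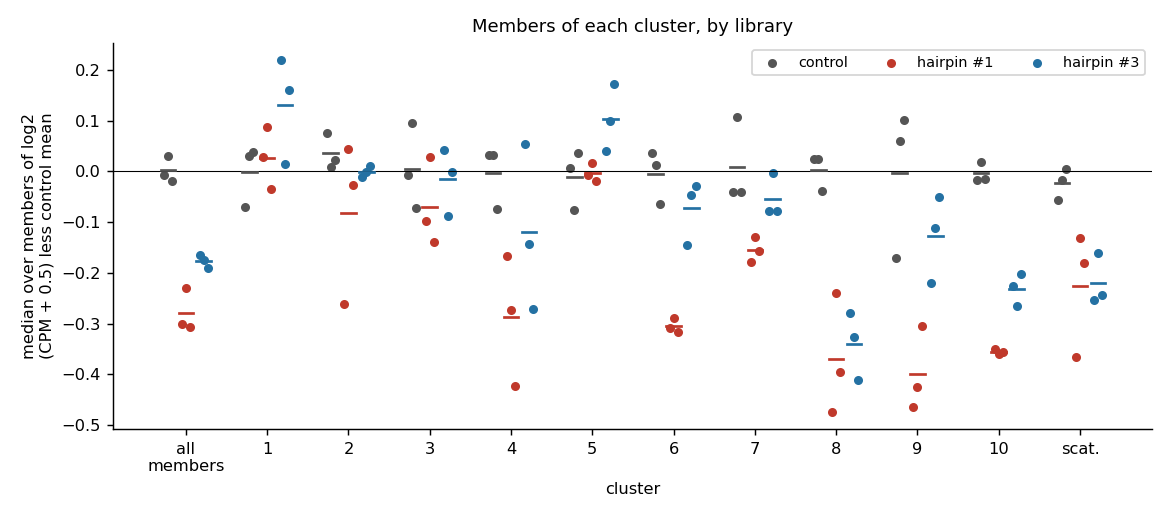
For each library (point), the median over members of log2 (CPM + 0.5) less the gene's control mean (y axis), for all members, each cluster and the scattered members (x axis), with a bar at the mean of the 3 libraries of a group. In clusters 8 and 10 all hairpin libraries lie below all control libraries, from -0.47 to -0.24 and from -0.36 to -0.20, whereas in clusters 1 to 3 the groups mix. In the scattered members the hairpin libraries also lie below control, from -0.37 to -0.13.

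Clusters 8 and 10 separated by library. The cluster 10 median was -0.02, 0.02 and -0.01 in control libraries A to C, -0.35, -0.36 and -0.36 under hairpin #1 and -0.23, -0.27 and -0.20 under hairpin #3. That of cluster 8 was 0.02, 0.02 and -0.04 in control, -0.47, -0.24 and -0.40 under hairpin #1 and -0.28, -0.33 and -0.41 under hairpin #3. In cluster 10 hairpin #1 lay below hairpin #3 in every library, while in cluster 8 the hairpins overlapped. Cluster 10 members summed to 689 ± 9.49 CPM in control (SD, n = 3), 519.7 ± 11.3 with hairpin #1 and 573 ± 9.48 with hairpin #3. Cluster 8 members summed to 751 ± 21.7, 568 ± 42.02 and 604 ± 11.2 CPM. In cluster 9 the control libraries spread from -0.17 to 0.10, so that hairpin #1, at -0.46 to -0.30, was apart from them and hairpin #3, at -0.22 to -0.05, was not.

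The other coding genes in and within 1 Mb of a cluster were set beside its members. These are all coding genes not named ZNF and a number, so zinc finger genes of other names count among them. Around cluster 10 they include ZSCAN5A, ZFP28, PEG3, ZIK1, ZSCAN1, ZSCAN18, ZSCAN22 and ZBTB45. PEG3 reached 10 counts in control libraries alone, so its fall was fixed by the filter. For cluster 10 the 19 neighbours had a median of -0.32 with both hairpins, -0.40 with hairpin #1 and -0.20 with hairpin #3, where the members had -0.33, -0.37 and -0.26. For cluster 8 the 36 neighbours had -0.37, -0.44 and -0.18, and the members -0.39, -0.41 and -0.33. For cluster 6 the 47 neighbours had -0.27, -0.24 and -0.31, and the members -0.28, -0.31 and -0.09. In clusters 6 and 8 the near match with both hairpins was thus not seen with hairpin #3, where the neighbours of cluster 6 were lower than its members and those of cluster 8 were less low. Around cluster 7 the 43 neighbours had -0.32, -0.39 and -0.40, and the members -0.13, -0.09 and -0.04. Around cluster 4 the 24 neighbours had 0.07, -0.05 and 0.01, a median whose sign turned with hairpin #1, and the members -0.23, -0.27 and -0.21. Around cluster 5 the 29 neighbours had -0.27 with both hairpins where the 5 members had 0.11, although 2 of those 5 were lower by adjusted p-value and 0 higher. Counting only genes inside the bounds, the 4 of cluster 6 had -0.20 with both hairpins, the 9 of cluster 7 -0.29 and the 10 of cluster 10 -0.14. The 4 include the zinc finger genes ZFP14, ZFP82 and ZFP30, so they are no measure of neighbours without fingers. Those of cluster 10 include ZIK1, ZSCAN1, ZSCAN18 and ZSCAN22, and those of cluster 9 include ZSCAN5A and ZFP28. The 11 inside cluster 9 had 0.25 with both hairpins but 0.00 with hairpin #1 and 0.07 with hairpin #3. In and within 1 Mb of cluster 9 the 33 neighbours had -0.18 with both hairpins, -0.29 with hairpin #1 and -0.16 with hairpin #3. The members of cluster 9 had -0.27, -0.38 and -0.15.

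**Figure D3:**
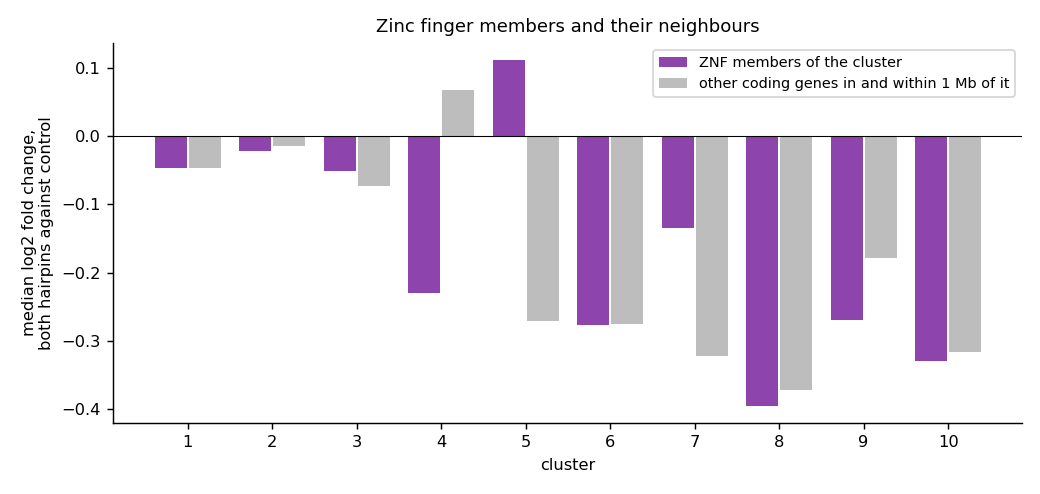
Median log2 fold change with both hairpins against control (y axis) of the ZNF members of each cluster (purple) and of the other tested coding genes in it and within 1 Mb (grey), by cluster (x axis). The grey bars include zinc finger genes of other names. No error is drawn since the bars are medians over genes, and in cluster 8 both bars lie near -0.39 and -0.37. In cluster 4 the neighbours' median of 0.07 turned to -0.05 with hairpin #1, and the cluster 5 members number 5.

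Cluster 10 held the longest unbroken run with both hairpins and with hairpin #1. From ZNF543 to ZNF837 (chr19:57320509-58381060), 35 members in a row were below control with both hairpins and with hairpin #1, with medians of -0.35 and -0.38. With hairpin #3 the longest run was elsewhere, 22 members from ZNF611 in cluster 8 to ZNF784 in cluster 9 (chr19:52702813-55624601), with a median of -0.38. In the whole of cluster 10, 17 of 43 members (39.5%) were lower with both hairpins by adjusted p-value and 0 were higher, where 17% and 15.9% of all tested genes were. Its 19 neighbours within 1 Mb had 3 (15.8%) lower and 0 higher. ZNF544 had 1137, 1197 and 1126 counts in control, 683, 721 and 825 with hairpin #1 and 578, 622 and 779 with hairpin #3. It fell by 0.70 on the log2 scale with both hairpins (SE 0.08, adjusted p = 3.27e-05), and neither hairpin overlapped control. ZNF551 and ZNF552 fell by 0.72 (adjusted p = 0.000353) and 0.80 (adjusted p = 0.000666). These 3 were picked after their values were seen.

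ZNF274, also in that run, recruits SETDB1 to the 3′ ends of zinc finger genes themselves. It had 40.97, 43.4 and 41.5 CPM in control, 26.96, 30.6 and 33.6 under hairpin #1 and 31.5, 35.3 and 36.6 under hairpin #3, below control in each. With both hairpins it fell by 0.37 on the log2 scale (SE 0.10, adjusted p = 0.0152). ZNF134, the most abundant member of the cluster per kilobase, stood at 35.2 ± 2.33, 31.9 ± 2.73 and 35.9 ± 1.52 CPM in control, hairpin #1 and hairpin #3 (log2 fold change -0.05, SE 0.10, adjusted p = 0.729 with both hairpins).

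Inside the same run ZNF135 went silent. ZNF135 (ENSG00000176293, chr19:58059239-58086310) had 37, 39 and 35 counts in control and 0 in all 6 knockdown libraries. Set against 3 counts in each library, the limit that a count of 0 allows, it was at least 12.8-fold lower with hairpin #1 and at least 11.3-fold lower with hairpin #3. This is a description with no test, since ZNF135 was a member through its control libraries alone. PCR copies were not collapsed by molecular identifiers, so bounds and count intervals cover counting error alone. Its 3′ end overlaps that of ZSCAN18 on the other strand, and the libraries kept no strand. ZSCAN18 had 463, 582 and 628 counts in control, 441, 496 and 614 with hairpin #1 and 433, 508 and 771 with hairpin #3, with overlapping groups. The members on either side, ZNF606 and ZNF329, had 225 to 387 and 294 to 498 counts across the libraries. As a description, of 224 members with 10 counts in every control library, ZNF135 was the 1 at 3 counts or fewer in all 6 knockdown libraries (0.446%), where 143 of 14409 listed genes were (0.992%). No member was silent in control.

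**Figure D4:**
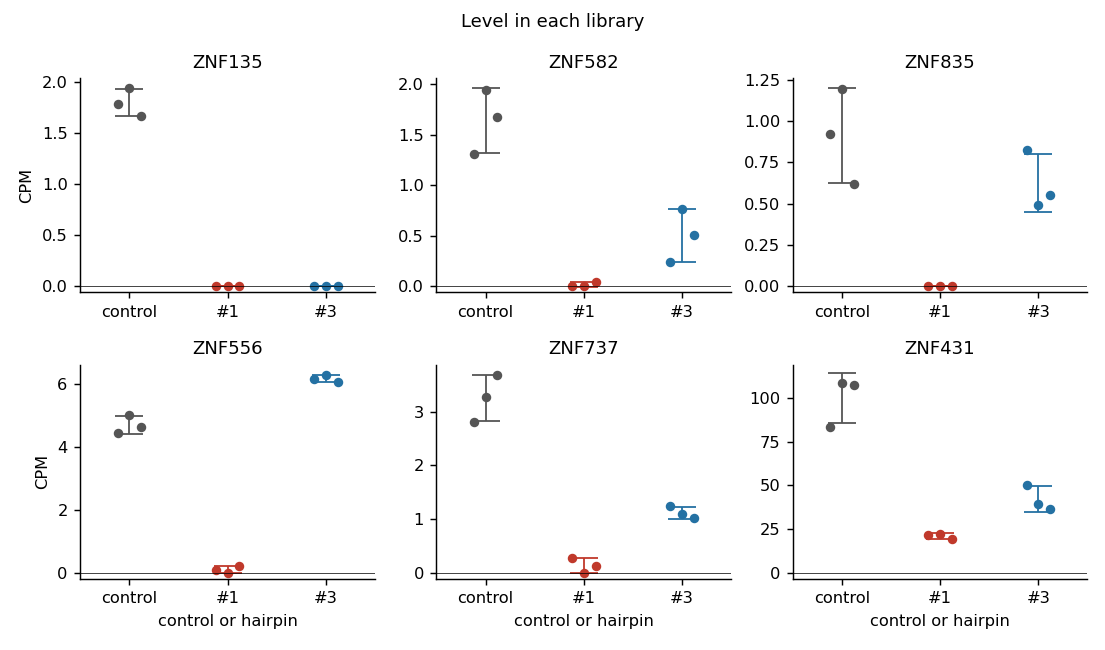
Level in CPM (y axis, linear) of 6 members in each library (points) by group (x axis), with error bars of 1 SD about the mean. ZNF135 is at 0 with both hairpins, ZNF582 and ZNF835 are at or near 0 with hairpin #1, and ZNF556 is near 0 with hairpin #1 alone.

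In cluster 9 the losses were mostly those of hairpin #1. ZNF582 (ENSG00000018869, chr19:56375846-56393545), whose promoter is known to be methylated in carcinomas, had 27, 39 and 35 counts in control, 0, 0 and 1 with hairpin #1 and 4, 14 and 11 with hairpin #3, and the 3 groups did not overlap. By counts it was 105-fold lower with hairpin #1 (95% exact interval 18.5 to 4205). With hairpin #3 it fell by 1.68 on the log2 scale (SE 0.42, adjusted p = 0.00742). With both hairpins as 1 arm its adjusted p-value was 0.0159, and 0.0655 without control B and 0.0504 without control C. ZNF582 overlaps the pseudogene ZNF542P, which had 47, 112 and 100 counts in control, 0, 0 and 0 with hairpin #1 and 2, 0 and 10 with hairpin #3 and so was also near 0 with hairpin #1.

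ZNF835 (ENSG00000127903, chr19:56661981-56671783) had 19, 24 and 13 counts in control, 0, 0 and 0 with hairpin #1 and 14, 9 and 12 with hairpin #3. It was at least 6.49-fold lower with hairpin #1 (adjusted p = 8.06e-05), and hairpin #3 overlapped control (log2 fold change -0.55, SE 0.42, adjusted p = 0.349). ZNF583, the next member after ZNF582 and on the other strand, had 205, 252 and 225 counts in control, 87, 87 and 107 with hairpin #1 and 215, 202 and 310 with hairpin #3. It fell by 1.34 on the log2 scale with hairpin #1 (SE 0.16, adjusted p = 1.51e-05) and overlapped control with hairpin #3 (log2 fold change 0.20, adjusted p = 0.339). ZNF667, likewise known for promoter methylation in tumours, fell by 0.37 with hairpin #1 (adjusted p = 0.0294) and had a log2 fold change of 0.04 with hairpin #3 (adjusted p = 0.845). ZNF583 was named after its values were seen. ZNF787, the most abundant of cluster 9 per kilobase, stood at 93.5 ± 2.50, 71.7 ± 13.6 and 77.8 ± 1.88 CPM in the 3 groups and fell by 0.32 with both hairpins (SE 0.11, adjusted p = 0.0411). In all, 10 of 16 members (62.5%) were lower by adjusted p-value with hairpin #1, where 19.7% of all genes were, and 2 (12.5%) with hairpin #3, under the 18.1% of all genes.

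Cluster 4 held a lower stretch. From ZNF737 to ZNF429 (chr19:20535825-21556270), 10 members in a row were below control with each hairpin, with medians of -0.89 for hairpin #1 and -0.39 for hairpin #3, and hairpin #1 was the lower in all 10. The other 17 members of the cluster had medians of -0.19 and 0.00, with 12 and 8 below control. The bounds of the stretch were chosen after the values were seen, so this contrast is a description. The next member, ZNF100, was also below control with each hairpin (-0.25 and -0.33), and there hairpin #3 was the lower. Outside the stretch ZNF506 fell by 0.70 with hairpin #1 and by 0.73 with hairpin #3 (adjusted p = 0.0127 and 0.0118 in edgeR). ZNF100 and ZNF506 were named after their values were seen. ZNF431 (ENSG00000196705, chr19:21142024-21196053) had 1721, 2190 and 2256 counts in control, 461, 434 and 443 with hairpin #1 and 857, 722 and 795 with hairpin #3, with no overlap between any groups. It fell by 2.26 on the log2 scale with hairpin #1 (SE 0.14, adjusted p = 5.04e-08) and by 1.25 with hairpin #3 (SE 0.14, adjusted p = 1.16e-05). It overlaps the pseudogene RPL7AP10, and 1.77% of its 100-base windows also occur in other genes.

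ZNF737 (ENSG00000237440, chr19:20535825-20565809) opens the stretch and had 58, 66 and 77 counts in control, 6, 0 and 3 with hairpin #1 and 21, 20 and 22 with hairpin #3, again without overlap. By counts it was 23.3-fold lower with hairpin #1 (95% exact interval 12.04 to 51.7), and it fell by 1.55 on the log2 scale with hairpin #3 (SE 0.35, adjusted p = 0.00387). With both hairpins as 1 arm the adjusted p-value was 0.0129, and 0.0501 without control C. ZNF714, between ZNF430 and ZNF431, had 95, 118 and 100 counts in control, 37, 32 and 32 with hairpin #1 and 65, 54 and 54 with hairpin #3, with the groups apart. It fell by 1.69 with hairpin #1 (adjusted p = 5.68e-05) and by 0.72 with hairpin #3 (adjusted p = 0.0184). ZNF430, ZNF708, ZNF493 and ZNF429 fell by 0.88, 0.94, 0.89 and 0.87 with hairpin #1, and of these ZNF430 also passed with hairpin #3 (adjusted p = 0.0400). ZNF714 and these 4 were named after their values were seen.

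The member just before the stretch went the other way. ZNF486, the most abundant of cluster 4 per kilobase, had 287, 301 and 251 counts in control, 362, 403 and 445 with hairpin #1 and 326, 337 and 387 with hairpin #3, and it rose with both hairpins (log2 fold change 0.45, SE 0.11, adjusted p = 0.00770). ZNF91, a repressor of SVA retrotransposons, stood at 25.1 ± 1.31, 19.6 ± 2.59 and 25.01 ± 3.53 CPM in control, hairpin #1 and hairpin #3 and fell by 0.36 with hairpin #1 (SE 0.13, adjusted p = 0.0433). ZNF93, a repressor of LINE-1 elements, stood at 6.99 ± 0.579, 5.78 ± 0.644 and 5.91 ± 1.09 CPM (adjusted p = 0.221 with both hairpins).

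**Figure D5:**
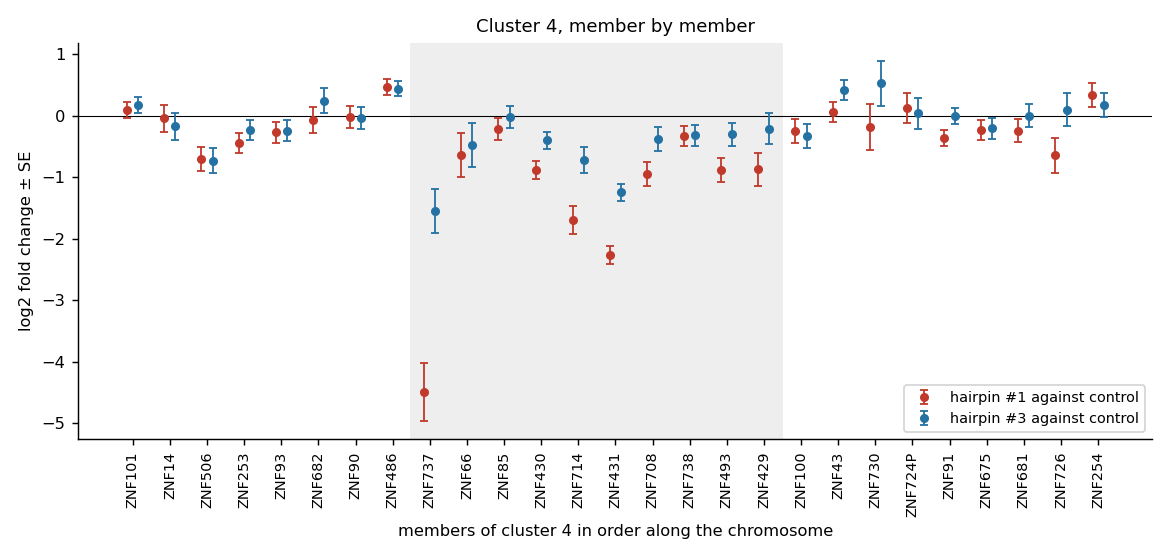
Log2 fold change against control with 1 SE (y axis) of the 27 members of cluster 4 in order along the chromosome (x axis), for hairpin #1 (red) and hairpin #3 (blue). In the shaded stretch from ZNF737 to ZNF429 all 10 members lie below 0 with both hairpins, with medians of -0.89 and -0.39.

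Cluster 8 was lower with both hairpins. Of its 37 members, 36 were below control with hairpin #1 and 32 with hairpin #3, and with both hairpins 18 (48.6%) were lower by adjusted p-value and 0 higher, where 17% and 15.9% of all genes were. Its 36 neighbours within 1 Mb had a like share, with 15 (41.7%) lower and 3 (8.33%) higher with both hairpins. The last 17, from ZNF611 to ZNF331, were all below control with each hairpin, with medians of -0.47 and -0.45. ZNF525 had 523, 465 and 526 counts in control, 301, 266 and 274 with hairpin #1 and 214, 214 and 227 with hairpin #3, and fell by 0.90 on the log2 scale with hairpin #1 and by 1.08 with hairpin #3 (SE 0.12, adjusted p = 1.35e-05). ZNF28 and ZNF468 fell by 0.68 (adjusted p = 0.000329) and 0.75 (adjusted p = 1.89e-05) with both hairpins. ZNF600, ZNF28 and ZNF468 overlap on the chromosome, and ZNF468 shares 52.0% of its 100-base windows with other genes, chiefly ZNF320. ZNF525 overlaps ZNF765 and ZNF845 on the same strand. The counts of all these genes are thus uncertain.

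ZNF600 stood at 15.9 ± 1.29, 11.4 ± 1.26 and 8.26 ± 0.664 CPM in the 3 groups and was the 1 member lower with hairpin #3 than with hairpin #1 by adjusted p-value (log2 difference -0.47, adjusted p = 0.0451). ZNF677 was ordered the other way, at 20.4 ± 0.596, 10.1 ± 0.455 and 16.1 ± 0.689 CPM, without overlap (log2 difference 0.67, adjusted p = 0.00163). ZNF525, ZNF28, ZNF468, ZNF600 and ZNF677 were named after their values were seen. ZNF480, the most abundant of the cluster per kilobase, stood at 40.2 ± 9.57, 35.3 ± 3.75 and 32.04 ± 3.45 CPM (adjusted p = 0.199 with both hairpins). ZNF350, which represses DNA damage response genes with BRCA1, stood at 12.6 ± 1.49, 9.93 ± 0.312 and 10.8 ± 1.03 CPM (adjusted p = 0.0986), and the imprinted gene ZNF331 at 25.2 ± 2.43, 22.3 ± 1.25 and 20.6 ± 1.05 CPM (adjusted p = 0.0924).

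Clusters 1 to 3 held 1 member called at 2-fold, and it separated the hairpins. ZNF556 (ENSG00000172000, chr19:2867335-2883445) had 92, 101 and 97 counts in control, 2, 0 and 5 with hairpin #1 and 105, 115 and 132 with hairpin #3. By counts it was 43.25-fold lower with hairpin #1 (95% exact interval 20.7 to 108.5), and with hairpin #3 its log2 fold change was 0.39 (SE 0.23, adjusted p = 0.218). Beside it by position, ZNF555 rose with both hairpins (log2 fold change 0.58, SE 0.17, adjusted p = 0.0196) and ZNF57 had 18 to 60 counts across the libraries. The most abundant members per kilobase of clusters 1, 2 and 3 were ZNF77 at 3.38 ± 0.470, 3.65 ± 0.341 and 3.69 ± 0.400 CPM (adjusted p = 0.644), ZNF121 at 52.2 ± 3.30, 42.7 ± 1.56 and 45.6 ± 7.17 CPM (adjusted p = 0.0929) and ZNF791 at 18.9 ± 1.98, 20.9 ± 1.89 and 21.9 ± 0.808 CPM (adjusted p = 0.221).

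Clusters 5 to 7 and the scattered members held no call at 2-fold. ZNF146 in cluster 6, made almost wholly of zinc fingers, was the most abundant of all members per kilobase, at 27.9 CPM per kilobase where the median member had 1.83. It had 139, 137 and 125 CPM in control, 113, 109 and 100.2 under hairpin #1 and 107, 111 and 97.8 under hairpin #3, with neither hairpin overlapping control. It fell by 0.33 with both hairpins (SE 0.08, adjusted p = 0.00759). ZNF302 in cluster 5 stood at 41.5 ± 4.08, 48.6 ± 5.71 and 51.4 ± 3.33 CPM (adjusted p = 0.0679) and ZNF428 in cluster 7 at 16.9 ± 2.94, 18.5 ± 1.31 and 21.9 ± 3.61 CPM (adjusted p = 0.220). Among the scattered members ZNF473, a factor of histone pre-mRNA processing, fell by 0.60 with both hairpins (SE 0.15, adjusted p = 0.0107), a gene named after its value was seen.

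Rises were few and under 2-fold. Besides ZNF555 and ZNF486, the members higher with both hairpins by adjusted p-value were ZNF333, ZNF382, ZNF846, ZNF570 and ZNF225, with log2 fold changes of 0.79, 0.63, 0.60, 0.52 and 0.46. ZNF382, whose promoter is methylated in several carcinomas, had 9.30, 7.42 and 5.93 CPM in control, 11.2, 11.7 and 10.7 under hairpin #1 and 14.1, 9.93 and 12.4 under hairpin #3, above control in each (SE 0.17, adjusted p = 0.0120). ZNF788 rose with hairpin #3, standing at 10.1 ± 2.06, 9.90 ± 1.75 and 18.4 ± 1.62 CPM in the 3 groups, and the hairpins differed by 0.89 on the log2 scale (adjusted p = 0.00379). ZNF788 and the rising members other than ZNF486 and ZNF382 were named after their values were seen.

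Of 9 members picked for known roles or for promoter methylation in tumours, 1 rose and 2 fell with both hairpins by adjusted p-value, near the 15.9% higher and 17% lower of all genes, and 8 were below control. ZNF154, one of those known for methylation, had 28, 28 and 25 counts in control, 11, 10 and 4 with hairpin #1 and 12, 13 and 21 with hairpin #3, with neither hairpin overlapping control. It fell by 1.14 with both hairpins (SE 0.39, adjusted p = 0.0402), a call that was lost in 8 of the 9 fits leaving out 1 library, with adjusted p-values up to 0.124. ZNF154 overlaps ZNF551, from which its reads cannot be told apart there. ZNF671, of the same kind, stood at 5.36 ± 0.530, 4.63 ± 0.544 and 4.51 ± 0.842 CPM (adjusted p = 0.317).

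The hairpins were then compared directly. Hairpin #3 was above hairpin #1 for 154 of 225 members, with a median difference of 0.11 on the log2 scale. At 2-fold 6 members were higher with hairpin #3 and 0 lower, where 2.22% of all tested genes were higher and 1.72% lower. By adjusted p-value alone 16 (7.11%) were higher and 1 (0.44%) lower, where 6.33% and 5.3% of all genes were, so the share higher was near the background. The 6 were ZNF556, ZNF835, ZNF582, ZNF737, ZNF583 and ZNF431. Along the chromosome 18 members in a row, from ZNF581 in cluster 9 to ZNF17 in cluster 10 (chr19:55635459-57421939), were higher with hairpin #3. Against the shared control libraries, 4 of the 12 members called with hairpin #1 and of the 5 called with hairpin #3 were the same, namely ZNF582, ZNF737, ZNF431 and ZNF135, the last by the membership rule. ZNF556, ZNF714, ZNF578, ZNF677, ZNF583, ZNF835, ZNF154 and ZNF418 were called with hairpin #1 alone, and ZNF525 with hairpin #3 alone. Of these, ZNF714, ZNF578, ZNF677, ZNF583, ZNF418 and ZNF525 fell outside the naming rule and were named after their values were seen.

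The genes through which KRAB proteins act were not lower as a list. Of 17 tested partners, 4 were higher and 1 lower with both hairpins by adjusted p-value, where 15.9% and 17% of all genes were, with a median log2 fold change of 0.07. TRIM28 had -0.16 (SE 0.12, adjusted p = 0.348) and SETDB1 0.17 (SE 0.10, adjusted p = 0.223). CBX5 and CBX1, which encode HP1 alpha and beta, rose by 0.64 (adjusted p = 0.00489) and 0.38 (adjusted p = 0.00973). The histone chaperone gene DAXX and the remodeller gene CHD4 rose by 0.36 and 0.31, and the deacetylase gene HDAC1 fell by 0.25 (adjusted p = 0.0176). A list of 11 genes covered histone H3 lysine methylation, DNA methylation (UHRF1 included) and the oxidation of methylcytosine. Of these 2 rose and 0 fell, where 15.9% and 17% of all genes did, so the share that rose was near the background. They were TET1, which oxidises methylcytosine, with 0.90 (SE 0.24, adjusted p = 0.0118) and the methyltransferase gene DNMT3A with 0.30 (adjusted p = 0.0152). DNMT3B fell by 0.72 with hairpin #1 (adjusted p = 0.000477) and had -0.43 with both hairpins (adjusted p = 0.0770).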

How the data were processed

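Poly(A) RNA of 9 OVCA433 libraries, 3 per group, had been sequenced without strand. The authors deposited a table of raw counts per gene, made with HISAT2 2.0.5 and featureCounts 1.5.0-p3 on hg38 according to the submitters' processing notes. The treatment of reads that map to several places and the annotation release were not given in the sources used here. Totals per library were 16850854 to 23890191 counts.

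Counts were tested with edgeR 4.0.16 in R 4.3.3 by the quasi-likelihood test, after filterByExpr (minimum count 10, minimum total 15, keeping 15975 genes) and TMM scaling, with Benjamini-Hochberg adjustment over all tested genes. CPM are TMM-scaled. Both hairpins against control was fitted with 2 arms, as in the study, and single hairpins with 3 groups. A call needed an adjusted p-value under 0.05 and a 2-fold change. The script was tested on simulated data. DESeq2 1.42.0, other scalings, filters and left-out libraries were alternatives. If the replicates were not separate cultures, the p-values measure technical spread only.

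Members, lists and tests were chosen with earlier results of these data known. The genes to name were, by rule, members silent in a condition, the 5 largest falls and rises called alike in every comparison with control, the 4 largest differences each way between hairpins, the most abundant member per kilobase of each cluster, and the 9 members of known role. Others are said to be named after their values were seen, and the runs and stretches were found in the data. All 226 members were found in GENCODE 29, 212 with the same start and end. Promoter windows came from RefSeq. The share of 100-base windows that also occur in another gene's transcripts was counted for each member.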

Additional observations from a re-analysis of the deposited data

Results flagged for a closer look

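For 6 members the effect of hairpin #1 and that of hairpin #3 differed by edgeR's quasi-likelihood test of the difference itself, with a 2-fold change or more, and all 6 were higher with hairpin #3. The fitted log2 difference was 5.76 for ZNF556 (SE 0.38, adjusted p = 1.43e-06), whose counts were 56.9-fold lower with hairpin #1 than with hairpin #3 (95% exact interval 27.3 to 142.4). It was 2.94 for ZNF737 (SE 0.53, adjusted p = 0.00278), which was 7.91-fold lower by counts (interval 3.92 to 18.1). For ZNF431 it was 1.02 (SE 0.14, adjusted p = 0.00048) and for ZNF583 1.54 (SE 0.16, adjusted p = 4.15e-05). ZNF582 had 4.57 (SE 0.86, adjusted p = 0.00377) on a total of 1 count with hairpin #1, a ratio of 32.8 by counts (interval 5.44 to 1339). The fitted 6.67 of ZNF835 (SE 0.99, adjusted p = 0.00132) depends on the prior count, since hairpin #1 had no read, and the counts give at least a 4.44-fold lower level. All 3 libraries of one hairpin lay apart from all 3 of the other in each of the 6. The 6 were selected by their difference between these same libraries, so this adds no support. All libraries of hairpin #3 were above all of hairpin #1 for 21.78% of members and 14.49% of all tested genes. They were below for 1.78% and 13.18%.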

How the results depend on the processing

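The median of the members kept its sign under every alternative run, leave-one-out included. Leaving out 1 library moved it between -0.28 and -0.24 with both hairpins, -0.33 and -0.29 with hairpin #1, -0.22 and -0.18 with hairpin #3, and 0.086 and 0.14 between the hairpins, where scaling to library totals gave 0.13. Members called numbered 6, 12, 5 and 6 in those comparisons. Without the fold threshold they were 72, 93, 49 and 17. A mean of at least 1 CPM left 3, 7 and 3 in the comparisons with control, and requiring 10 counts in all libraries, which removes genes that fell to 0, left 2, 5, 2 and 2. An adjusted p-value under 0.01 left 2 with both hairpins. Leaving out 1 library gave 3 to 7 (3 without control C), 12 to 15, 5 to 10 (10 without control A) and 5 to 9, and the cause was not tested. With both hairpins, the calls of ZNF582, ZNF737 and ZNF154 were lost in the fits named in the report, and that of ZNF154 also without the low-count filter (adjusted p = 0.0524). At a minimum of 30 counts in control, ZNF135 was the 1 member silent with hairpin #1. Of 860 values recomputed, 826 kept their direction and call, or, for counts, stayed within the tolerance set for a count. Most that moved were values of the main results, of which 163 stayed the same and 20 moved. Of the other values 663 stayed the same, 13 were weaker and 1 moved.

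Libraries of the same letter had deviations correlated by 0.037 to 0.361 and those of other letters by -0.322 to 0.132. Pairs of A libraries had 0.306 to 0.361, and A against B or C had -0.322 to -0.101. The deviations thus followed the letter in part. The labels state no pairing, and the main tests had no term for the letter. A replicate block gave 5, 12, 5 and 6 calls, with medians of -0.25, -0.31, -0.20 and 0.11, and ZNF154 with both hairpins lost its call (adjusted p = 0.0671).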

Other observations

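Chromosome 19 genes with a zinc finger symbol that the membership rule left out, by name or by gene type, included 26 with enough reads, 12 of them protein-coding. The rest are pseudogenes and noncoding transcripts, which are not all zinc finger genes. ZNF561-AS1, ZNF529-AS1 and ZNF790-AS1, for example, are noncoding and overlap members, from which unstranded reads cannot be told apart there. With both hairpins 24 of the 26 were below control, with a median log2 fold change of -0.45, and 11 were lower and 0 higher by adjusted p-value in edgeR, where 17% and 15.9% of all tested genes were. These counts include PEG3 and ZNF542P, which needed their control libraries to reach 10 counts in 3 libraries and so could enter only as lower. The genes named here were chosen after their values were seen. ZFP36, an mRNA-decay factor with CCCH rather than C2H2 fingers, had 448, 479 and 579 counts in control, 133, 118 and 164 with hairpin #1 and 83, 101 and 125 with hairpin #3. It fell by 2.04 on the log2 scale with both hairpins (SE 0.13, adjusted p = 2.35e-07). The pseudogenes ZNF321P and ZNF702P, from duplicated arrays, fell by 1.36 and 1.06 (adjusted p = 0.00121 and 2.29e-05).

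PEG3, an imprinted gene just beyond cluster 9, had 10, 17 and 13 counts in control and 0 in all 6 knockdown libraries. It passed the minimum of 10 counts through the control libraries alone, so its difference was fixed by that filter and is given as counts only. The pseudogene ZNF542P, which overlaps ZNF582, was at 0 in the hairpin #1 libraries and at least 29.97-fold lower there than in control. ZNF542P also needed its control libraries to pass that minimum, so its fall is a description with no test. In the direct comparison of hairpins ZSCAN5A was higher with hairpin #3 (log2 difference 0.71, SE 0.18, adjusted p = 0.0187) and ZNF818P lower (-0.42, SE 0.12, adjusted p = 0.0303).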
